A study of Homo sapiens with 58 samples.

Results

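Homologous recombination and Fanconi transcripts were followed across 58 human cell lines labelled as breast cancer. The set holds 35 genes, listed by their role in the pathway. Of these, 31 had a probe set annotated to that gene alone, out of 19798 genes with such a probe set on the array, and the probe set with the highest mean stood for each gene. BRCA2, FANCA, FANCD2 and RBBP8 had none and were not analysed here. FANCM, the helicase that brings the Fanconi complex to stalled forks, had a median of 4.04 and was above the array median in only 2 lines, MDAMB453 at 6.61 and EVSAT at 6.10, and was left out of the tests. That leaves 30 genes among the 14651 detected, where a gene counts as detected if at least 3 units exceeded the median of their array.

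Each line was grown in the medium its vendor advises, received no treatment and was measured on 1 array of a custom Affymetrix design, so no line has a replicate and the error used below is the spread between lines. A level is the deposited log2 intensity, and 1 log2 unit is a 2-fold difference. Lines known to come from 1 donor or 1 parental line were averaged for tests, which turned 58 lines into 50 units, and a unit of several lines is named by its lines joined, as in AU565_SKBR3 and VP229_VP267, or by their shared name, as in EFM192. Array medians lay between 5.37 and 5.58, and the 95th percentile of 529 probe sets named for viruses, a measure of background, was 5.66.

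Homologous recombination mends DNA breaks in which both strands are cut by copying an intact sister molecule. The MRE11, RAD50 and NBN complex and the nuclease EXO1 trim the broken ends, BRCA1 with its partner BARD1 and the bridge protein PALB2 bring in BRCA2, and the paralogs RAD51B, RAD51C, RAD51D, XRCC2 and XRCC3 assist the exchange of strands that follows. The Fanconi core complex and the FANCD2 and FANCI pair unhook DNA strands that are linked to each other, and cells that lose either route are sensitive to agents that link DNA and to inhibitors of PARP.

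The cell identity of the lines was checked first. In HS362T, HS579MG, HS605T, HS739T and HS578T, called the 5 Hs lines here, all 6 fibroblast markers (COL1A1, COL1A2, COL3A1, LUM, POSTN, PDGFRA) were above the array median with a mean level of 12.9 to 13.21, against 3.53 to 10.87 in the 49 lines outside the sets of this paragraph. Between 2 and 6 of the 7 measured epithelial markers were above the array median in the 5 Hs lines. MDAMB435S, M4A4 and NM2C5 had 4 to 5 of the 5 melanocyte markers above it, and MT3 all 4 intestinal markers, with a mean level of 11.49. SW527 also had all 4 intestinal markers above it, at a mean of 7.40, and HCC1395 and MDAMB453 all 6 fibroblast markers, at means of 9.62 and 8.85. KRT8 and KRT14, which belong to the epithelial list, had no probe set of their own here.

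BRCA1, the ubiquitin ligase that starts recombination at breaks, was lowest in HS362T at 6.45, had a median of 8.85 and was highest in SVCT at 10.25. The lines next to the ends were SUM149PT at 6.87 and FR2 at 10.03, so neither end was set by 1 line alone. MDAMB436, HCC1937 and SUM149PT are known as lines with BRCA1 mutations, and their BRCA1 transcript stood at 7.43, 9.34 and 6.87, so 2 of these lines lay below the median and 1 above it. BARD1, the partner that stabilises BRCA1, ran from 7.47 in HS605T over a median of 9.33 to 10.36 in MDAMB453. PALB2 spanned a narrower range, from 7.3 in HS362T over a median of 8.67 to 9.62 in CAL148, with an SD across units of 0.48. BRIP1, the helicase that binds BRCA1, spanned the widest range of this group, from 3.89 in EFM192A over a median of 7.15 to 9.87 in KPL1.

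The paralogs RAD51B, RAD51C, RAD51D, XRCC2 and XRCC3, which assist strand exchange, differed in how far single lines departed from the rest. RAD51B was 3.15 in MDAMB436, against a median of 7.62, 6.24 in the next lowest line OCUBF and 9.77 in MDAMB361, the highest. RAD51C ran from 9.22 in NM2C5 over a median of 11.07 to 13.06 in KPL1, and RAD51D from 6.39 in EFM192A over 7.72 to 8.75 in COLO824. XRCC2 was lowest in HS362T at 3.77, had a median of 6.62 and was highest in HCC1395 at 8.77, and it lay above the array median in 51 lines. XRCC3 ran from 5.61 in HS739T over 7.6 to 8.81 in VP267. Of these 5 paralogs, RAD51B had the widest gap between its lowest line and the next. Among the helpers of strand exchange, RAD54L ran from 6.34 in HCC38 over 8.37 to 9.59 in HCC1187, RAD54B from 7.67 in EFM192A over 10.35 to 11.88 in HCC1954, and RAD51AP1 from 6.54 in EFM192A over 10.07 to 11.09 in CAL120. RAD52, which anneals single strands, was lowest not in a line with low values of the others but in FR2 at 7.75, with a median of 9.3 and a peak of 10.67 in SUM149PT.

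Of the Fanconi genes, FANCB had the widest spread inside sets of 1 origin. It was 4.07 in VP229 and 7.61 in VP267, lines of the same patient, and 4.79, 7.28 and 5.90 in EFM192A, EFM192B and EFM192C, against a median of 6.95 and a peak of 8.9 in NM2C5. Its SD within sets was 1.21, against 0.91 across units, and EXO1, POLQ, CHEK1, RAD54B and TP53BP1 also varied at least as much within the 6 sets (14 lines) as across units, 6 of 30 genes in all. FANCC, FANCE, FANCG and FANCL, core complex subunits of which FANCL is the ubiquitin ligase, had medians of 8.11, 10.69, 8.64 and 8.91 and were lowest in HS362T (FANCC at 6.19, FANCG at 6.61), HCC38 (FANCE at 8.45) and EFM192C (FANCL at 7.06). FANCF, an adaptor of the core complex, was lowest in FR2 at 6.85, had a median of 9.01 and was highest in HCC1187 at 10.13. FANCI ran from 7.87 in HS362T over 10.67 to 12.04 in MFM223.

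Next came the kinases that signal damage. ATM, which responds to breaks, ran from 7.47 in KPL1 over 9.19 to 10.98 in NM2C5, and its 3 highest lines were NM2C5, M4A4 at 10.65 and MDAMB435S at 10.34. ATR, which responds to stalled forks, ran from 8.01 in HS362T over 9.38 to 10.37 in MDAMB435S. Its effector CHEK1 ran from 6.18 in EFM192A over 9.45 to 11.02 in T47D, and CHEK2, the effector of ATM, from 5.36 in EFM192A over 7.7 to 9.33 in OCUBF. CHEK2 has near-identical copies elsewhere in the genome, so its single probe set may read more than 1 locus. TP53BP1, which shields broken ends from trimming, had the narrowest spread of the 30 genes (SD 0.43) and ran from 9.18 in HCC1937 over 9.96 to 10.7 in MDAMB436.

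At the broken ends, RAD50 was 7.40 in VP229 and 8.04 in VP267, against a median of 9.85 and a highest level of 11.08 in EFM192C. NBN was highest in AU565 at 12.77 and its sister line SKBR3 at 12.28, against a median of 10.54 and a lowest level of 8.88 in CAL148. EXO1 ran from 6.1 in HS362T over 9.97 to 10.91 in HCC1143. BLM, the helicase that takes apart crossed strands, ran from 6.87 in HS362T over 10.1 to 11.52 in HCC1143. POLQ, the polymerase of an error-prone rival route, ran from 5.53 in EFM192A over 8.04 to 9.57 in MDAMB435S. HS362T was the lowest line for 9 of the 30 genes and EFM192A for 7, while the highest line was the same for at most 2 genes.

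**Figure D1:**
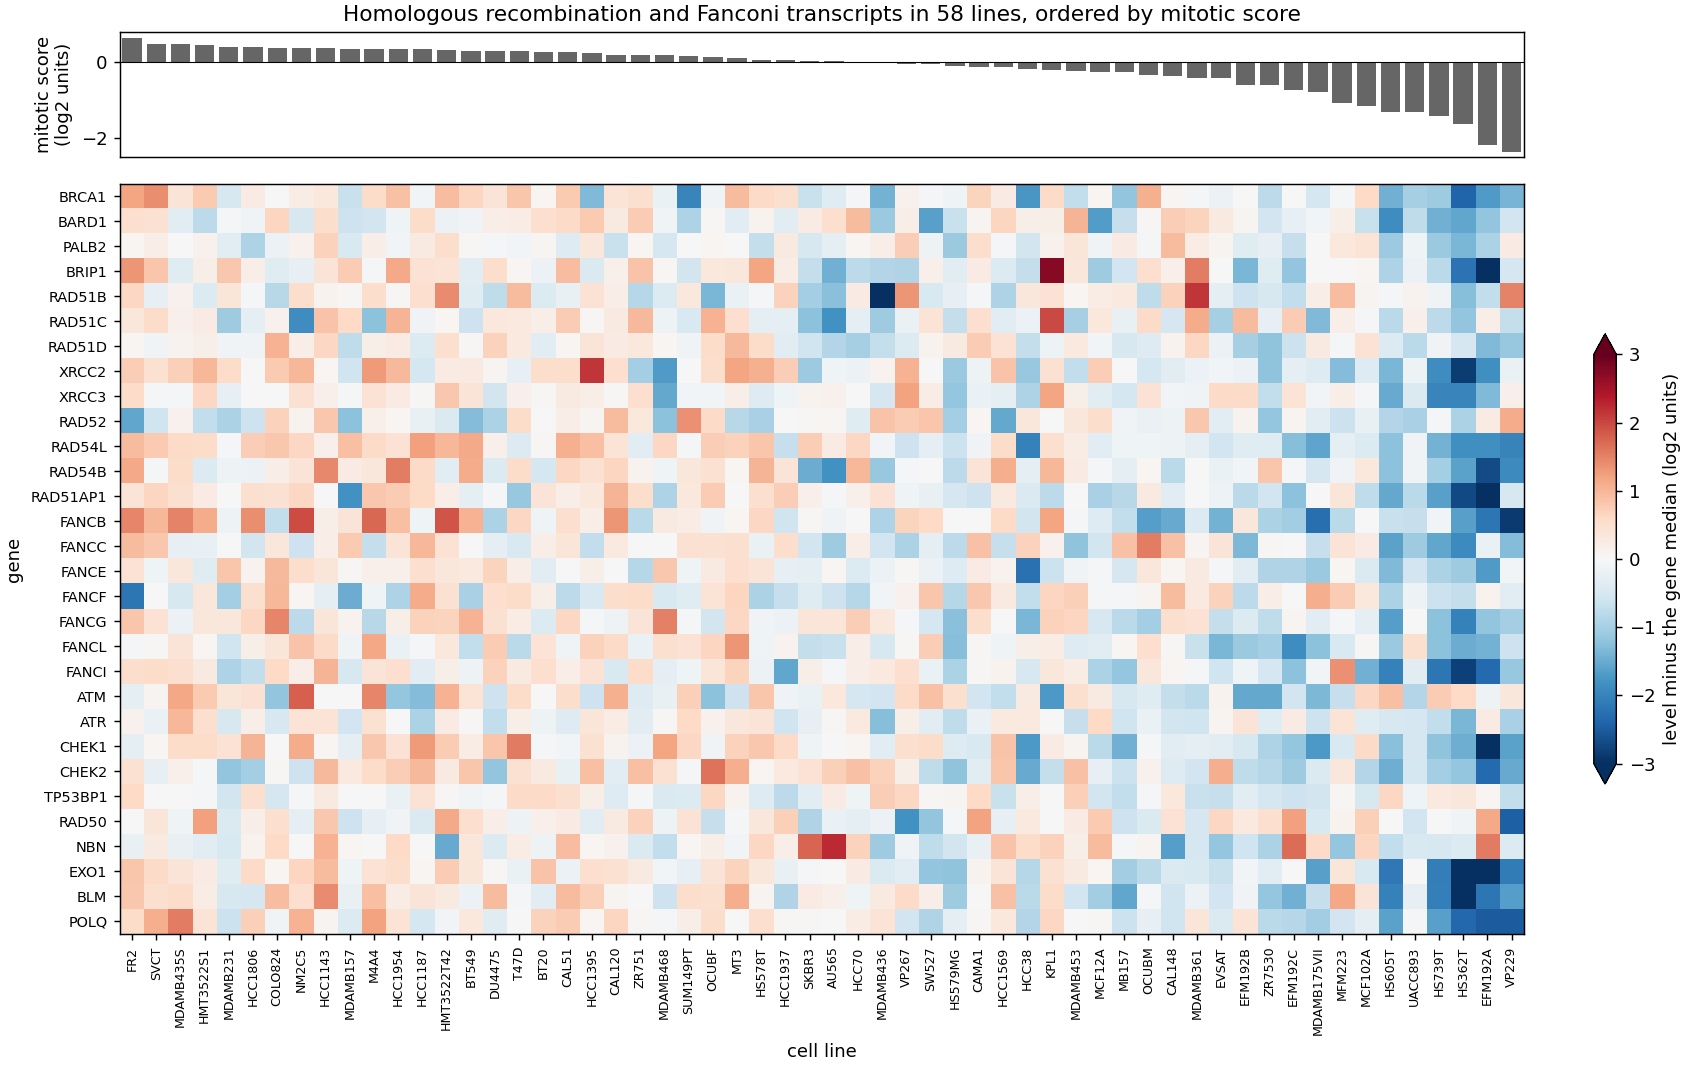
Level of the 30 detected genes (rows) in each of the 58 lines (columns) as log2 units above or below the gene's median, in red and blue, with lines ordered from the highest to the lowest mitotic score, which the grey bars show. The columns at the right end, HS362T, EFM192A and VP229 among them, are blue for most genes. RAD51B in MDAMB436 and BRIP1 in KPL1 are the largest departures within their columns, where other genes also depart from their medians.

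To separate what follows proliferation, the 30 genes were set against a mitotic score, the mean distance of 25 mitotic genes (MKI67, TOP2A, CCNB1 and the like, none of them in the set) from their medians. The score was lowest in the lines VP229 at -2.37, EFM192A at -2.19, HS362T at -1.63 and HS739T at -1.44, and highest in FR2 at 0.63. Of the 30 genes, 19 rose with the score (63.3%) and none fell, with limma and Benjamini-Hochberg adjusted p-values over all detected genes, against 6.66% of all 14651 that rose and 2.44% that fell. The median slope was 0.62 for the 30 genes, against 0.02 for all detected genes, in log2 units of level per log2 unit of score. This count rests largely on the 5 Hs lines. Without them, 7 of 30 genes passed (CHEK1, EXO1, FANCB, FANCE, POLQ, RAD51AP1 and RAD54L), against 3.15% of all genes.

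EXO1 had the steepest slope, 1.10 ± 0.15 (SE, 50 units; limma adjusted p = 3.86e-07). RAD54L followed at 0.996 ± 0.14 (limma adjusted p = 2.99e-07), then BLM and XRCC2 at 0.92 ± 0.18, FANCB at 0.91 and POLQ at 0.91. The slopes of RAD51AP1, CHEK1, FANCI, FANCG, BRCA1, BRIP1, RAD54B, CHEK2, FANCC, FANCL, FANCE, BARD1 and XRCC3, which also passed, declined from 0.88 to 0.47. Without the 5 Hs lines the order changed, and EXO1 at 0.68 ± 0.15 lay below FANCB at 1.07 ± 0.23, RAD54L at 0.91 ± 0.17 and CHEK1 at 0.78 ± 0.19. BLM was then at 0.49 ± 0.19 (limma adjusted p = 0.119) and XRCC2 at 0.61 ± 0.21 (limma adjusted p = 0.0742). The slope of BRCA1 was 0.50 ± 0.22 with a limma adjusted p of 0.176, and that of XRCC3 was 0.07. For the 19 genes that passed, the line of the score took up between 18.7% and 53.1% of the variance across units, with a median of 33.3%. In RNA from a whole culture, fewer dividing cells and less RNA per dividing cell cannot be told apart.

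No slope passed for ATM, ATR, FANCF, NBN, PALB2, RAD50, RAD51B, RAD51C, RAD51D, RAD52 and TP53BP1. The sensors and their platform TP53BP1 are thus among those without a call, with slopes of 0.01 ± 0.19 for ATM, 0.27 ± 0.11 for ATR (limma adjusted p = 0.131), 0.15 ± 0.14 for RAD50, 0.25 ± 0.17 for NBN and 0.06 ± 0.11 for TP53BP1. Of the paralogs, slopes were -0.06 ± 0.22 for RAD51B, 0.30 ± 0.17 for RAD51C and 0.34 ± 0.12 for RAD51D (limma adjusted p = 0.0755). A slope that missed the threshold does not show that these transcripts ignore proliferation, and the share of variance for them reached 14.3%. Relative log expression is the deviation of each gene from its median over the lines. Its interquartile range, called array quality here, widens on poorer arrays and also in lines that differ more from the rest. These cannot be told apart with 1 array per line. The range was 0.731 in HS362T, 0.694 in VP229 and 0.687 in EFM192A, the 3 widest of arrays that start at 0.49. The fit used the same measure over the detected genes of the 50 units, which was 1.01 in HS362T, 0.744 in VP229_VP267 and 0.709 in EFM192, and its r with the score was -0.465. With array quality as a term in the fit 14 genes rose, against 3.97% of all genes. With MKI67 alone as the score 15 rose, against 4.3%, and with a list of 19 S-phase genes 23, against 12.4%, to which ATR, PALB2, RAD51C and RAD51D belonged.

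**Figure D2:**
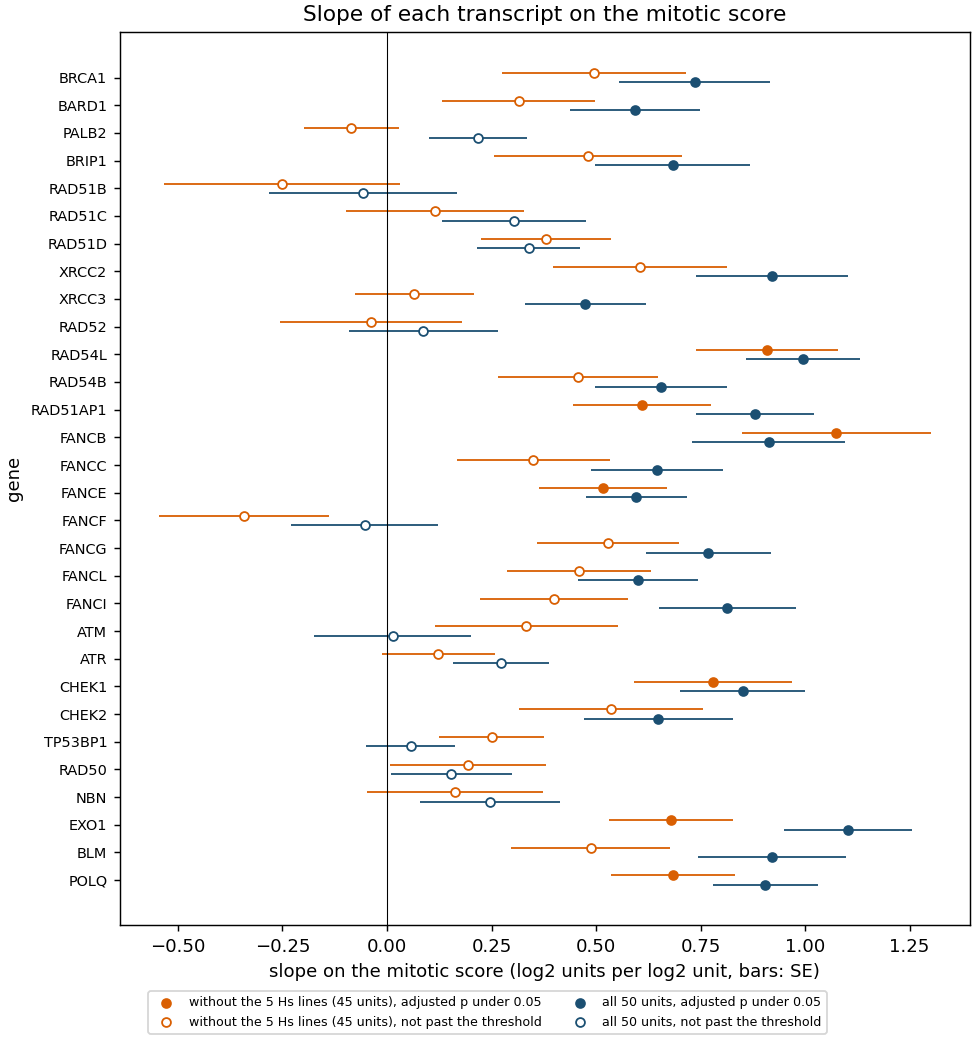
Slope of each gene (rows) on the mitotic score in log2 units per log2 unit, with bars for the SE; orange stands for the fit without the 5 Hs lines (45 units) and blue for all 50 units, and filled points passed an adjusted p of 0.05. Most blue points lie right of 0, with EXO1 farthest at 1.10, and 7 orange points are filled.

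The bases just upstream of the genes were read for letters of the kind E2F factors bind, since E2F drives many genes of the cell cycle. The RefSeq promoters used here (GRCh38.p14) matched 27 of the 30 genes, and those of RAD54B, FANCI and NBN were not analysed here. Only 1 annotated start per gene was read, so letters at another start of a gene would be missed. The 150 bases before the BRCA1 start lay at chr17:43170328-43170477, and the 250 bases before the RAD51B start held 1 CG. Whether the starts read are those used in these lines was not tested. The letters TTTGGCGC, TTCCCGCC, TTTCCCGC and TTTCGCGC were searched on both strands of the 250 bases before the start, where TTCCCGCC and TTTCCCGC can overlap. At least 1 of them stood upstream of 5 of 17 genes that rose with the score (29.4%) and of 1 of 10 that did not pass, RAD52. The share was 6.74% of the promoters of detected genes, 13.1% of those whose gene rose with the score and 4.37% of all 27305 promoters. The 5 are shown as the 150 bases before the start, 5′ to 3′ on the strand of the gene, with the letters found in capitals. They lie at chr1:46247538-46247687 (RAD54L, plus strand), chr9:95317710-95317859 (FANCC, minus strand), chr2:58241326-58241475 (FANCL, minus strand), chr15:90717196-90717345 (BLM, plus strand) and chr12:4538740-4538889 (RAD51AP1, plus strand).
RAD54L: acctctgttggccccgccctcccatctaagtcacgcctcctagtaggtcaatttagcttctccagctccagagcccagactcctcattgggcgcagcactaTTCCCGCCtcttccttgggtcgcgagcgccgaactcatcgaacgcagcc
FANCC: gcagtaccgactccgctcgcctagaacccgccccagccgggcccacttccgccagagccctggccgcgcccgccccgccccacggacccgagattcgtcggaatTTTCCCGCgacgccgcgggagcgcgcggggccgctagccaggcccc
FANCL: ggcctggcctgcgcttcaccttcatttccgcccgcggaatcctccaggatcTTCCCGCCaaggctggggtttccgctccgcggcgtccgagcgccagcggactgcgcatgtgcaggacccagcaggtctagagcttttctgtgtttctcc
BLM: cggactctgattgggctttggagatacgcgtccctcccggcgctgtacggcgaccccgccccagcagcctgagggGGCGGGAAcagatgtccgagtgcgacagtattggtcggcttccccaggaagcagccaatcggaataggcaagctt
RAD51AP1: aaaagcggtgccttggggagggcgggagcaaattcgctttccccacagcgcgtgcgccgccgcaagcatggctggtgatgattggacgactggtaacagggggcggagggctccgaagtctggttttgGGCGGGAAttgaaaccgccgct

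In these windows the capitals begin at -49 for RAD54L, -46 for FANCC, -99 for FANCL, -75 for BLM and -22 for RAD51AP1, counted from the start of the gene. FANCC held a second match at -172, outside the window printed. BLM and RAD51AP1 carry the letters on the opposite strand, where they read GGCGGGAA. EXO1, XRCC2, FANCB and POLQ, whose slopes were among the 6 steepest, held none of the letters in 250 bases. The letters CCAAT, bound by NF-Y, stood in 41.2% of the 17 promoters and in 34.7% of those of detected genes, and TTTGAA or TTCGAA, letters found in many mitotic promoters, in 17.6% and 10.1%. Among all detected genes that rose with the score the shares were 47.5% and 17.4%, and CCAAT stood in 4 of the 10 promoters of members that did not pass. A match is a description of letters and not a site of binding.

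Luminal identity was set against the same genes. In a fit that also held the mitotic score, BARD1, BRIP1, EXO1, FANCF, FANCG, FANCI, PALB2 and XRCC3 rose with a score of 9 luminal genes (8 of 30, 26.7%), against 21.1% of all detected genes. ATM alone fell, with a slope of -0.19 ± 0.05 (limma adjusted p = 0.00162), 1 of 30 against 14.8% of all. BARD1 had a slope of 0.16 ± 0.04 (limma adjusted p = 0.00069) and FANCI one of 0.17 ± 0.04 (limma adjusted p = 0.000707). With the S-phase score in place of the mitotic score the slope of BARD1 was 0.08 ± 0.04 (limma adjusted p = 0.0795) and that of FANCI 0.06 ± 0.04 (limma adjusted p = 0.178), and 1 of the 30 genes rose and 6 fell, against 18.4% and 14.3% of all. Without the 5 Hs lines BARD1 was the only one of the 30 that rose, against 9.51% of all, and XRCC2 the only one that fell, against 6.45%. Without HS362T alone 5 rose, against 18.6%. In the main fit the share that rose, 26.7%, is near the background of 21.1%, and the share that fell, 3.33%, is below 14.8%. With the S-phase score 3.33% rose, below 18.4%, and 20% fell, above 14.3%. Without the 5 Hs lines 3.33% rose and 3.33% fell, both below the shares of all genes. The r between the mitotic and luminal scores was -0.188.

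Single lines were then read for transcripts that stood apart. A line was called low for a gene if it lay at least 1.5 log2 units and more than 3 scaled median absolute deviations below the gene's median, and lost if it also lay below the median of its own array. There were 29 low calls in 13 of 30 genes (43.3%), against 20.3% of all detected genes with at least 1 low line. They sat in 9 lines, with 8 calls in EFM192A, 8 in HS362T, 4 in VP229, 3 in HS739T and 2 in HS605T, and 1 each in HCC38, MDAMB436, MDAMB468 and VP267. The 5 lines with several calls were among the 6 with the lowest mitotic scores, and UACC893, at -1.33, had none. EFM192A, HS362T and VP229 also had the widest arrays, and the part of proliferation, array quality and cell identity in these calls was not tested. Just inside the threshold lay XRCC3 in HS605T at -1.51 and in MDAMB468 at -1.53 from the median, and just outside it PALB2 in HS362T at -1.37 and RAD54B in AU565 at -1.81, the last within 3 deviations.

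There were 5 calls of a lost transcript, in 4 of 30 genes (13.3%), against 9.78% of all detected genes, which is near the background. RAD51B stood at 3.15 in MDAMB436, BRIP1 at 3.89 in EFM192A and 4.92 in HS362T, XRCC2 at 3.77 in HS362T and POLQ at 5.55 in VP229, against medians of 7.62, 7.15, 6.62 and 8.04. The other probe sets of BRIP1 were lower as well, at -2.46 and -2.66 from their medians in EFM192A and -1.64 and -1.25 in HS362T. EFM192B and EFM192C, lines of the same origin as EFM192A, had 5.77 and 5.96 of BRIP1, also below its median but above the median of their arrays.

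Removing the fitted mitotic slope changed which lines were called. There were then 13 calls in 11 of 30 genes (36.7%), against 19.4% of all detected genes, and 7 of them were among the 29. The 13 were spread over 11 lines, and 9 lines had 1 call. EFM192A and HS362T had 1 call each, against 8 each before. With the slope fitted without the 5 Hs lines there were 26 calls, and 12 of the 13 were among them. Most of the added calls were in HS362T, HS605T, HS739T and EFM192A, and the others were CHEK1 in HCC38 at 7.72 and RAD54B in SKBR3 at 8.85. XRCC2 in MDAMB468, at 4.92, was the one that was not. Lost after the slope were RAD51B in MDAMB436 and XRCC2 in MDAMB468, 2 of 30 genes (6.67%) against 10.7% of all.

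**Figure D3:**
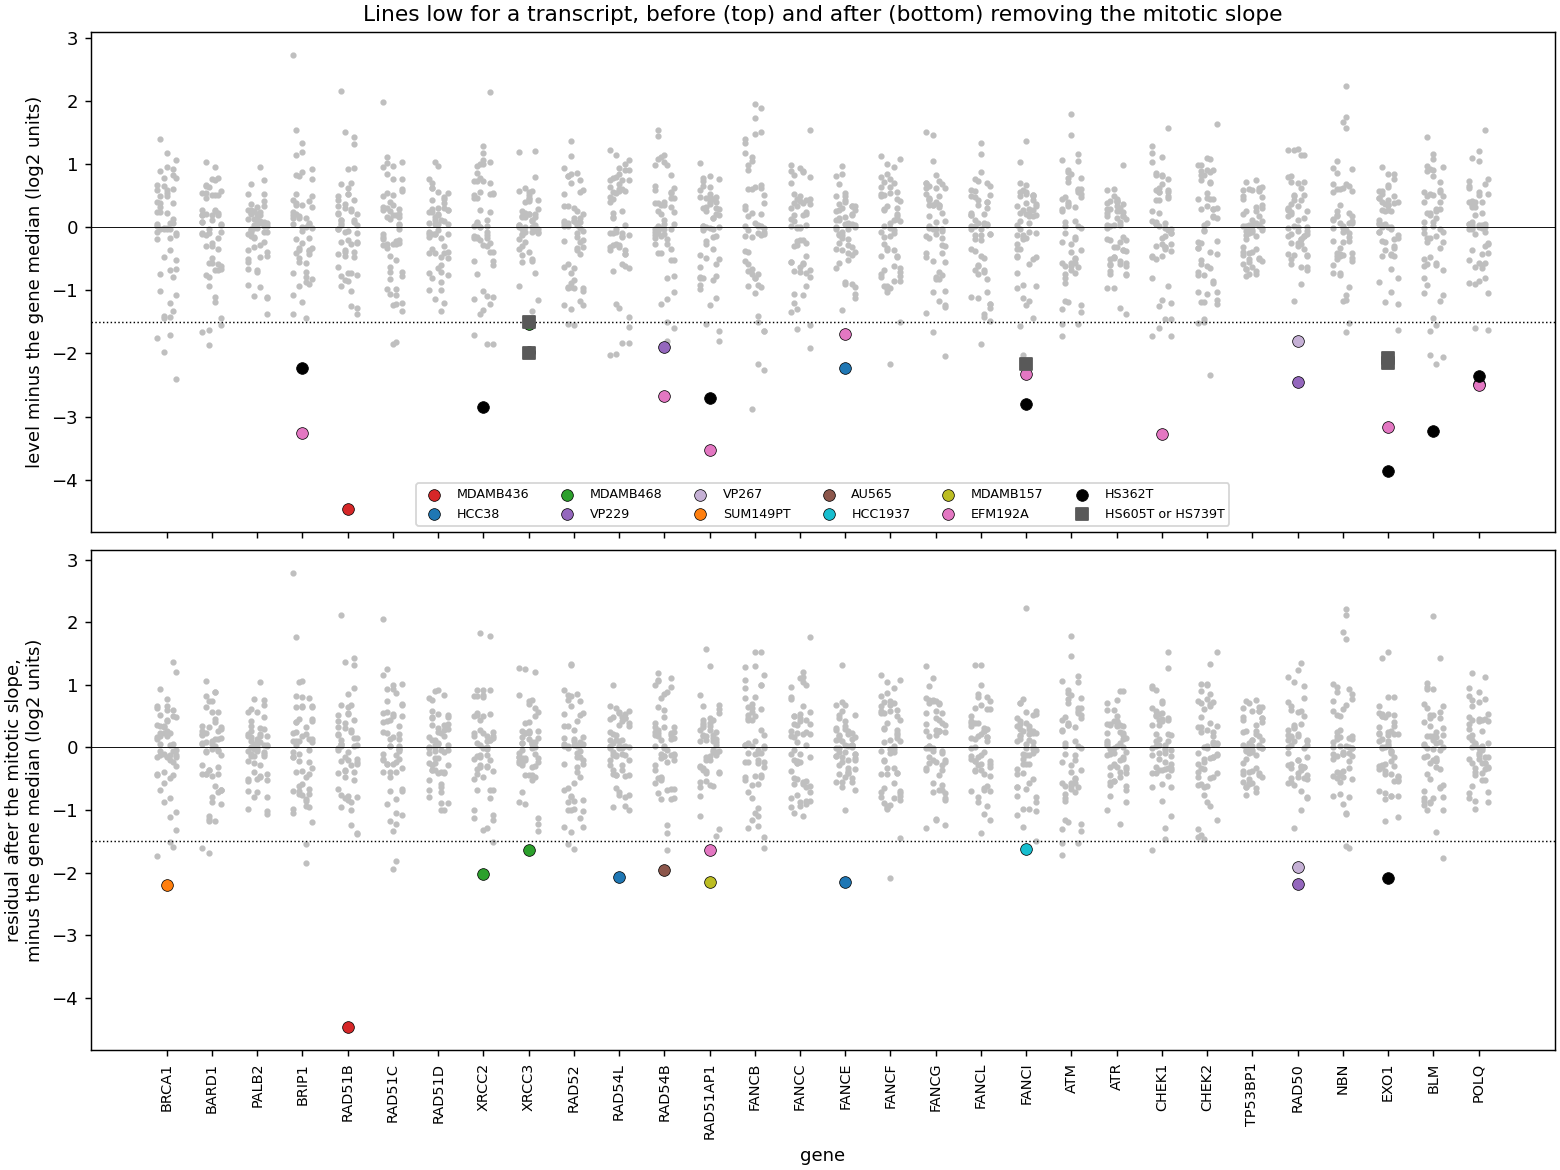
Each point is a line, placed by its level minus the gene's median in log2 units, as measured (top) and after removing the mitotic slope (bottom); coloured points were called low and the dotted line marks 1.5 units. In the top panel black (HS362T) and pink (EFM192A) points lie below the dotted line in many genes, the bottom panel holds 13 calls, and RAD51B in MDAMB436 is at -4.47 from the median in the top panel.

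RAD51B in MDAMB436 lay at -4.47 log2 units from the median and -4.37 from the fitted value, in a line with a mitotic score of -0.03. Its level of 3.15 is below the array median of 5.55 and the viral background of 5.66, so the transcript is read only as low there and the size of the difference was not measured. Its other probe sets stood at -3.28 and -1.78 from their medians. On chromosome 14, the next detected gene on one side, ZFYVE26, a lysosome and cell division gene, stood at 3.81 in MDAMB436, against a median of 7.91, and on the other side EXD2, a nuclease 4 detected genes away, stood at 7.18 against 9.38. Both were at their lowest of the 58 lines in MDAMB436. The genes between RAD51B and EXD2 stood at -1.58 (ZFP36L1), -0.46 (ACTN1) and -0.70 (DCAF5) from their medians, and RDH11 and VTI1B, 3 and 4 genes beyond RAD51B on the ZFYVE26 side, differed from their medians by -0.27 and 0.00. Farther out on the ZFYVE26 side PLEKHH1 and TMEM229B, 7 and 8 genes away, stood at -1.05 and -1.18. On the EXD2 side SLC39A9, 7 genes away, was lowest of the 58 lines in MDAMB436, at 11.41 against 11.98. The low values thus lay at RAD51B and at some close and some farther neighbours, with genes near their medians between them. Of the 20 neighbours, 4 were lower and 2 higher by at least 1 unit after the slope was removed.

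BRCA1 in SUM149PT, at 6.87, lay at -2.13 from the fitted value in a line with a mitotic score of 0.14. Its neighbours in gene order, RND2 and NBR1, differed by -0.06 and 0.30. HCC38 was low for FANCE, at 8.45 against a median of 10.69, and after the mitotic slope was removed also for RAD54L, on another chromosome, at 6.34 against 8.37. It was also the third lowest line for BRCA1 at 7.10 and the lowest but one for CHEK2 at 6.18. The mitotic score of HCC38 was -0.18, but its score on the S-phase genes was -0.84. After the mitotic slope the median residual of the tested members there was -0.44. The mitotic slope does not remove such an S-phase difference, and its part in the HCC38 calls was not tested. MDAMB468 was low for the paralog XRCC3, at 6.07 against 7.6. XRCC2, at 4.92 against 6.62, was called there only after the mitotic slope was removed, and not with the slope fitted without the 5 Hs lines. FANCG in MDAMB468 was the highest of all lines at 10.15.

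RAD50 was low in both VP229 and VP267, at -2.15 and -1.87 from the fitted value, although their mitotic scores were -2.37 and -0.05. The other RAD50 probe sets were lower in both, at -2.46 and -1.60 from their medians in VP229 and -1.70 and -1.31 in VP267. These lines come from 1 patient and count as 1 observation. Neighbours IRF1 and KIF3A differed by 0.29 and -0.86 in VP229 and by 0.46 and -0.61 in VP267. FANCI in HCC1937 at 9.11, against a median of 10.67, was at -1.54 from the fitted value, and its neighbour POLG, the mitochondrial polymerase, at -2.04. RAD51AP1 in MDAMB157 at 8.26, against 10.07, was at -2.11, with 8 of 20 neighbours lower by at least 1 unit. Its sister line MB157 stood at 9.24. The remaining calls were EXO1 in HS362T at 6.1 and RAD51AP1 in EFM192A at 6.54.

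RAD54B in AU565 at 8.54, against a median of 10.35, was low together with its surroundings on chromosome 8. After the slope was removed, 16 of 20 neighbours were lower by at least 1 unit in AU565, CIBAR1 at 2.84 against a median of 7.59 among them. SKBR3, from the same donor, had 8.85 of RAD54B. FSBP, at -2.70 from its median in AU565, overlaps the RAD54B locus, so the probe sets of these genes may not be independent. NBN, on the same chromosome, was by contrast highest in these lines.

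**Figure D4:**
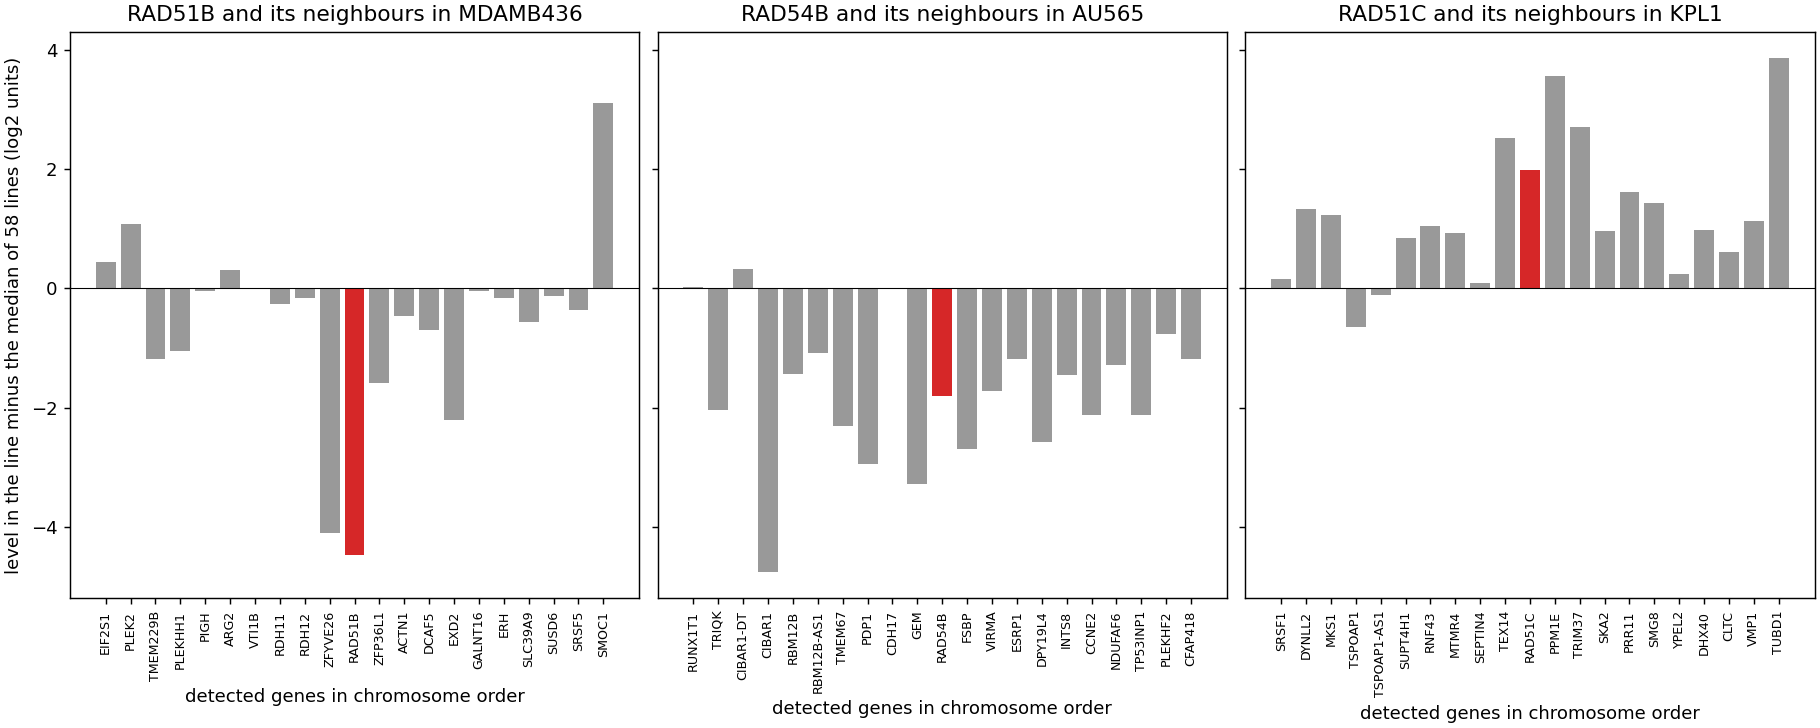
Level in 1 line minus the median of 58 lines, in log2 units, for a gene (red) and the 10 detected genes on each side in chromosome order (grey). RAD51B in MDAMB436 is low with ZFYVE26 beside it, RAD54B in AU565 is low with 16 of 20 neighbours after the mitotic slope, and RAD51C in KPL1 is higher along with PPM1E and TUBD1.

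Lines with unusually high levels were sought in the same way. With the mirror of the low rule, 3 of 30 genes had a high line, against 24% of all detected genes. BRIP1 was 9.87 in KPL1, against a median of 7.15, and its other probe sets were 3.02 and 3.60 higher. RAD51B was 9.77 in MDAMB361, against 7.62, and NBN 12.77 in AU565, against 10.54. After the mitotic slope was removed there were 7 calls in 6 genes, again against 24%. These added RAD51C in KPL1 at 13.06, FANCI at 12.04 and BLM at 11.26 in MFM223, and NBN in EFM192A at 12.11. NBN was 12.21 in EFM192C, which was not called, and 9.94 in EFM192B, and the NBN slope that was removed, 0.25, had not passed. As measured, FANCI and BLM in MFM223 lay 1.37 and 1.16 above their medians, and the other BLM probe set was 0.98 higher. The mitotic score of MFM223 was -1.08, but its score on the S-phase genes was -0.16. The median of the 30 genes there was 0.04 from the gene medians as measured and 0.63 after the slope. The MFM223 calls thus depend on the score that was removed.

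KPL1 was high for both genes on chromosome 17 that lie near each other, and their neighbours were high too. Of the 20 neighbours of BRIP1, 14 were higher by at least 1 unit in KPL1, with BCAS3 at 11.95 against a median of 7.05 and TBX2, a transcription factor, at 9.71 against 5.57. Of the 20 neighbours of RAD51C, 11 were, with TUBD1 3.86 higher. MDAMB361 had the second highest BRIP1 (8.69) and RAD51C (12.19). Around NBN in AU565 6 of 20 neighbours were higher by at least 1 unit and 3 lower. FANCI and BLM lie on chromosome 15, and in MFM223 10 of the 20 neighbours of FANCI were higher and 4 of those of BLM.

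Over all units, the residuals of a gene were set against the mean of its 20 neighbours in gene order. The median r was 0.35 for the 30 genes, against 0.32 for all 14627 detected genes with a position, so the set was near the rest (50 units each). It was highest for RAD54B at 0.72, PALB2 at 0.70, RAD51C at 0.68 and ATM at 0.66. It was 0.10 for BRCA1, 0.01 for FANCB and -0.19 for EXO1. Neighbours share a chromosome and arrays, and no p is given.

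Pairs of genes in the set were also compared. The median r over the 435 pairs was 0.30 across units, against 0.00 over all pairs of detected genes, and 0.18 after the mitotic slope was removed. Among the 19 genes that rose with the score it was 0.51 before and 0.28 after, and among the 11 others 0.08 and 0.06. The closest pairs after removal were FANCI with BLM at 0.77, which lie on the same chromosome, EXO1 with POLQ at 0.67, and BLM with EXO1 and PALB2 with XRCC3 at 0.63. ATM ran against FANCI at -0.44 and BARD1 at -0.40. All pairs share the 50 units and their arrays.

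Other genes of the pathway, a list of 55 of which 50 were detected, was fitted in the same way. Of these, 24 rose with the mitotic score (48%) and none fell, against the 6.66% and 2.44% of all genes. Without the 5 Hs lines 11 rose (22%), against 3.15% of all genes. The smallest adjusted p-values were those of MND1, a meiotic helper of strand exchange, with a slope of 0.87 ± 0.12 (limma adjusted p = 8.2e-07), FIRRM, a partner of FIGNL1, with 0.79 ± 0.12, and the nuclease DNA2 with 1.07 ± 0.17. ATRIP, PSMC3IP, SHLD2, SHLD3 and SLX1A had no probe set of their own and were not analysed here. The list gave 30 low calls in 17 of 50 genes, against 20.3% of all detected genes with a low line, and 5 genes were lost in a line, against 9.78%.

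MRE11, the nuclease partner of RAD50 and NBN, was 4.32 in KPL1 and 4.35 in MT3, against a median of 6.29. DNA2 was 4.2 in HS362T, 4.62 in VP229 and 5.18 in HS605T, against 7.52. EME1 was 5.34 in HS362T, against 7.99, and HROB 4.59 in EFM192A, against 6.18. None of these 5 DNA2, EME1 and HROB calls was left after the slope was removed. HROB in ZR7530 at 4.19 and FAAP20, a small Fanconi core protein, in AU565 at 4.76, against 7.06, were still called, and so was MRE11 in both lines. KPL1 also had the lowest ATM of the 58 lines, at 7.47, with ZR7530 next at 7.65, but ATM was not called low there. Its BRIP1 and RAD51C were the highest of all lines, and RAD51C was called high only after the slope. The MRE11 median of 6.29 is not far above the viral background of 5.66, and no other MRE11 probe set could be compared. Whether these values in KPL1 are linked was not tested.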

How the data were processed

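Each line was measured on 1 array. Per the submitters' processing notes, the authors made the deposited values, which are log2 intensities per probe set, with RMA in Affymetrix Power Tools, with no version given; whether all 58 arrays were normalized together is not given in the sources used here. Of 52377 probe sets, 35184 named 1 gene, 374 named several and 16819 named none, and only the first were used, with the highest mean per gene. Probe sets per gene had an r of 0.83 or more with the one used, except for RAD51B (0.57 to 0.68), RAD54B (0.68), TP53BP1 (down to 0.30) and CHEK1 (down to -0.01). Low intensities lie near background, so a level below the array median is read only as low.

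The labels define no groups. That lines share a donor rests on textbook knowledge. Slopes were fitted with limma 3.58.1 (R 4.3.3, statmod 1.5.0; lmFit, eBayes with trend and robust) over 50 units, with Benjamini-Hochberg adjustment over all 14651 detected genes and a threshold of 0.05, and the fit was tested on simulated data. Scores are means over 25 mitotic, 19 of 21 S-phase and 9 of 10 luminal genes. Gene order and promoters came from RefSeq (GRCh38.p14). The median absolute deviation was scaled by 1.4826. The members and all lists were chosen with earlier results of these data known. Every member was named, and of the wider pathway list the genes lost in a line and those with the 3 smallest adjusted p-values. Alternatives were another probe set summary, normalization, filter, score, eBayes setting, set of lines and threshold.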

Additional observations from a re-analysis of the deposited data

How the results depend on the processing

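The count of 19 genes that rose with the mitotic score was between 14 and 23 under 10 of the alternatives fixed at the start. Of all genes 3.97% to 12.4% rose under these. The count was 7 without the 5 Hs lines, against 3.15% of all genes. It was 5, against 2.66%, without the 5 Hs lines, the EFM192 set and VP229_VP267, a run chosen after seeing the data. Leaving out each unit in turn, also chosen after seeing the data, gave 17 (without HS362T, against 4.42%) to 20 (without MCF102A, against 7.09%). Slopes of genes without a call changed sign in places. ATM was -0.0338 without the MDAMB435 set and MT3, -0.0424 with array quality as a term and -0.33 with the S-phase score. FANCF was 0.0067 with the mean of probe sets, 0.021 with array quality, 0.287 with the S-phase score and 0.0281 with MKI67 alone. PALB2 was -0.0856 without the 5 Hs lines and -0.14 without these and the EFM192 and VP229_VP267 sets. RAD51B was 0.12 with the mean of probe sets, 0.20 with the S-phase score and 0.13 with MKI67. RAD52 was -0.0493 with all 58 lines, -0.0379 without the 5 Hs lines, -0.0239 with array quality and -0.0186 with MKI67, and TP53BP1 -0.12 with the S-phase score. The causes were not tested.

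The 8 genes that rose with the luminal score were 1 without the 5 Hs lines, against 9.51% of all genes. They were also 1 without these and the EFM192 and VP229_VP267 sets, against 8.96%. With the S-phase score 1 rose, against 18.4%, and with MKI67 alone 5, against 19.9%. With 1 unit left out 5 (without HS362T, against 18.6%) to 10 rose, the latter against 20.4% to 21%. The 1 that fell was 6 with the S-phase score, against 14.3%, and 0 without the 5 Hs lines and both sets, against 6.01%. EXO1 turned to -0.0187 with the S-phase score. The 29 low calls were 13 after the mitotic slope and between 22 and 33 under the others. Without the 5 Hs lines there were 24, of which 15 were shared, and with the slope fitted without them 26, both runs chosen after seeing the data. The 3 high calls were 7 after the slope. Neighbour r had a median of 0.38 with 5 genes on each side. No probe set with 1 gene carries a mark for cross-hybridisation in its name, so no probe set could be left out on that ground. Cross-hybridisation was not tested. No paired analysis was possible because the labels give no groups and no replicate numbers. With 1 array per line, a line's own error is unknown.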
